A study of Mus musculus with 3 samples.

Results

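The cells described here were keratinocytes of mouse back skin chosen by their UMI counts and labelled outer bulge and root sheath keratinocytes. A cell was taken when its barcode had at most 10% mitochondrial UMIs and at least 200 genes, at least 10 UMIs of the basal keratins *Krt5* and *Krt14* together, and a UMI of at least 3 of the 6 genes *Sostdc1*, *Fst*, *Postn*, *Barx2*, *Vsnl1* and *Aldh3a1*. Cells with a UMI of *Krt71*, *Krt35* or *Shh*, which mark the inner root sheath, the hair shaft and the hair matrix, or of the leukocyte gene *Ptprc*, were left out. The rule found 4770 of 26847 cells, 969 of 6582 in Neg, 1810 of 10433 in AA and 1991 of 9832 in AA+Ab. All 3 groups were 25-week-old female C3H/HeN mice. Neg was the negative (vehicle) control, AA was the alopecia areata (AA) model, induced in the study by transfer of skin-draining lymph node cells, and AA+Ab was the model given an antibody against the chemokine CXCL12, which it neutralizes. Each group was 1 library made from the pooled skin of 7 to 8 mice. There were therefore no replicates, no test between groups was possible, and every interval below (95%, exact) covers counting error only.

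The hair follicle is a tube of epithelium whose outer layer, the outer root sheath, runs on from the basal layer of the epidermis. Its bulge region holds stem cells that rebuild the follicle in each hair cycle, under the control of BMP and WNT signals. In AA, T cells attack growing follicles, and interferon gamma with its JAK-STAT signalling raises antigen presentation and chemokines in the follicle epithelium, which is otherwise poor in both.

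The libraries held 6965 to 10879 barcodes and 121289374 to 141998364 UMIs. The chosen cells contributed 17708032 UMIs in Neg, 24325455 in AA and 28001713 in AA+Ab, with medians of 13333, 11059 and 10621 UMIs per cell. Levels are given as CPM, the UMIs of a gene summed over the chosen cells of a library per 1000000 UMIs of the same cells. Basal keratinocytes with UMIs of fewer than 3 of the 6 genes, under the same exclusions, served for comparison and are called other basal keratinocytes. They numbered 2629, 5070 and 3809, with medians of 12884, 11240 and 11450 UMIs. Few barcodes recurred between libraries, 14 to 23 of the kept cells per pair, and 2 chosen cells of Neg and AA had the same barcode. A doublet score called 6.91% of the chosen cells in Neg, 13.2% in AA and 11.5% in AA+Ab, and these cells were kept. Of all kept cells it called 5.58%, 8.70% and 8.40%, shares set in advance by the number of barcodes in each library.

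The 6 genes that chose the cells differed in how much they set them apart. Because the rule used them, their levels are a description. *Sostdc1*, a secreted inhibitor of BMP and WNT signalling, stood at 383 CPM in Neg, 384 in AA and 445 in AA+Ab, against 9.45, 14.5 and 11.7 in other basal keratinocytes. *Barx2*, a homeobox transcription factor, was found in the most cells, 87.6%, 84.8% and 85.0%, and the calcium sensor gene *Vsnl1* in the fewest, 51.3%, 38.8% and 42.6%. The matrix protein gene *Postn* separated the cells least, with 176, 250 and 184 CPM against 77.2, 112 and 97.9 in other basal keratinocytes. *Fst*, whose product follistatin binds activins and BMPs, stood at 209, 280 and 253 CPM. *Aldh3a1*, an aldehyde dehydrogenase gene, was highest in AA+Ab, at 120, 109 and 188 CPM. The number of markers per cell differed as well: 168 of the Neg cells, 172 of the AA cells and 307 of the AA+Ab cells had UMIs of all 6, and 338, 704 and 626 had exactly 3. Just inside the threshold, cells with 3 markers had 58.0, 172 and 111 CPM of *Sox9*, and just outside it, cells with 2 markers had 21.4, 53.9 and 41.0.

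The data bore the label out only in part. Of the 17 bulge genes compared, 9 were above other basal keratinocytes in all 3 libraries, among them *Sox9* and *Runx1*. The share of all genes that were so was not counted, and the count is a description only. *Krt17*, a keratin of the outer root sheath, stood at 1095, 965 and 1482 CPM against 287, 322 and 321. Other bulge genes were detected in few cells or were no higher. *Cd34*, the surface marker of the bulge in mouse, had a UMI in 4.02% of the chosen cells of Neg, 4.92% of AA and 2.26% of AA+Ab. Its level was 8.47, 18 and 4.89 CPM against 2.07, 2.37 and 1.81 in other basal keratinocytes, so it was higher in the chosen cells of each library. Cells with at least 5000 UMIs, thinned to that number, had shares of 2.54%, 3.79% and 1.22%, against 0.826%, 0.396% and 0.592% of other basal keratinocytes. The leukocytes that were as deep, 133, 173 and 153 cells, gave 0.752%, 0% and 1.96%, and were too few to set a background for AA+Ab. At such a level a cell that uses the gene can have no UMI of it, so the shares do not limit how many cells do. The bulge keratin and the companion layer keratin were no higher than elsewhere in the basal layer. *Krt15*, a bulge keratin, stood at 3623, 3141 and 3349 CPM against 4219, 4146 and 4116 in other basal keratinocytes, and *Krt75*, a keratin of the companion layer, at 4.35, 2.75 and 3.71 against 18.4, 13.0 and 19.4. *Lgr5*, a stem cell receptor for R-spondins, was above other basal keratinocytes in AA alone, with 32.2, 69.5 and 19.1 CPM against 41.9, 40.4 and 24.2. *Lhx2*, a bulge transcription factor, had 17.3, 29.6 and 16.8 CPM against 30.4, 22.4 and 25.7. The cells are therefore called Sostdc1-Barx2 keratinocytes below.

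The genes that led the Sostdc1-Barx2 keratinocytes over other basal keratinocytes mixed follicle regulators with genes of the upper follicle. *Adgrl3*, an adhesion G protein-coupled receptor gene, was first by the smallest log2 ratio over the 3 libraries, with 180, 274 and 304 CPM against 12.9, 26.8 and 18.3. *Sox9*, the transcription factor of the outer root sheath and bulge, stood at 148, 237 and 201 CPM against 11.7, 29.5 and 19.4. Upper follicle genes were among the leading 20 too. *Krt79*, a keratin of the infundibulum, had 530, 342 and 700 CPM against 14.9, 53.4 and 43.0, and the defensin gene *Defb6* had 422, 305 and 660 against 20.9, 61.0 and 52.6. *Gata6*, a transcription factor of the upper follicle and sebaceous duct, had a UMI in 16.8%, 12.9% and 19.7% of the cells. Of the 6 upper follicle genes listed, 5 were above other basal keratinocytes in all 3 libraries, the exception being *Plet1*. Here too the share of all genes was not counted. The other leading genes were *Dnm3*, *Ltbp1*, *Nebl*, *Rgs20*, *Aqp3*, *Gas7*, *Hpgd*, *Adgrl2*, *Abi3bp*, *Sox7*, *Map1b*, *Emb*, *Kalrn*, *Col8a1* and *Dpyd*, whose smallest log2 ratios lay between 2.94 and 1.95. Cells chosen for 6 linked genes differ in others by choice, so these differences are no test.

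**Figure D1:**
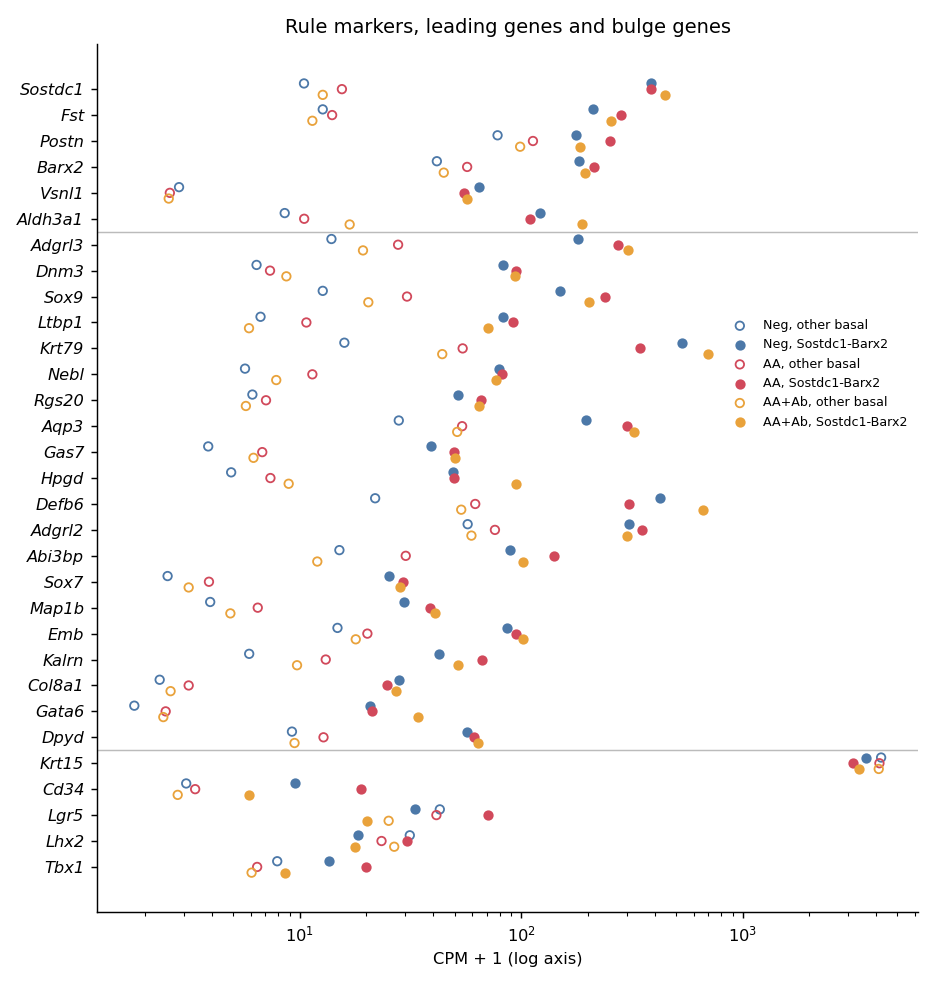
Level of the 6 genes of the rule, the 20 genes with the largest smallest log2 ratio to other basal keratinocytes and 5 bulge genes, as CPM plus 1 on a log axis, in Neg (blue), AA (red) and AA+Ab (orange). Filled points are Sostdc1-Barx2 keratinocytes and open points other basal keratinocytes; *Sox9* and *Krt79* lie far apart between the cells, while *Krt15* lies at 3141 to 4219 in all of them.

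The Sostdc1-Barx2 keratinocytes were not uniform. At least 3 UMIs of *Krt79* were found in 123 cells of Neg (12.7%, 95% interval 10.7 to 15), 160 of AA (8.84%, 7.57 to 10.2) and 304 of AA+Ab (15.3%, 13.7 to 16.9). In these cells *Defb6* reached 1905, 1972 and 2506 CPM and *Cst6*, a cystatin gene, 2268, 2778 and 4383 CPM. Of the other cells, at least 2 of the bulge genes *Cd34*, *Lhx2*, *Lgr5* and *Tbx1* were found in 55 cells of Neg (5.68%, 4.30 to 7.32), 152 of AA (8.40%, 7.16 to 9.77) and 88 of AA+Ab (4.42%, 3.56 to 5.42), and 2, 7 and 6 cells that met both definitions were counted with the *Krt79* cells. The *Krt79* share was thus lowest and the bulge gene share highest in AA. Among the 944, 1714 and 1893 cells with at least 5000 UMIs, thinned to that number, the order of the libraries was the same, at 10.5%, 7.58% and 13.0% for *Krt79* and 4.56%, 6.48% and 2.43% for the bulge genes. The intervals of Neg and AA then overlapped for *Krt79* (8.61 to 12.6 and 6.38 to 8.94) and for the bulge genes (3.32 to 6.09 and 5.36 to 7.75). All 4 bulge genes were present together in 23, 43 and 17 cells. *Tnc*, the tenascin C gene, stood at 103, 154 and 96.7 CPM in the bulge gene cells, and *Postn* at 414, 707 and 388. The remaining 81.6%, 82.8% and 80.3% of the cells met neither definition. Both subsets were defined after these counts had been seen.

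**Figure D2:**
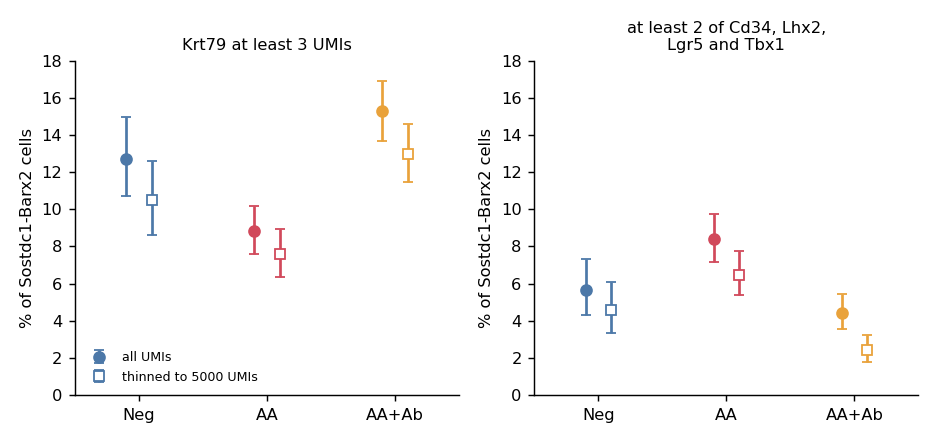
Share of Sostdc1-Barx2 keratinocytes with at least 3 UMIs of Krt79 (left) and with at least 2 of 4 bulge genes (right), in percent, in Neg, AA and AA+Ab. Filled circles use all UMIs, open squares cells thinned to 5000 UMIs, and bars are exact 95% intervals for counting error; the Krt79 share is 8.84% in AA and the bulge gene share 8.40%.

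As a share of all kept cells, Sostdc1-Barx2 keratinocytes came to 14.7% in Neg (13.9 to 15.6), 17.3% in AA (16.6 to 18.1) and 20.3% in AA+Ab (19.5 to 21.1). The order of Neg and AA turned when the excluded cells were kept in, and their gap was smaller at equal depth. Cells with at least 3 of the 6 markers were 1381, 2070 and 2404, and 412, 260 and 413 of them were removed, 247, 94 and 211 with a UMI of *Krt71*, an inner root sheath keratin. With these cells kept in, the shares were 21.0%, 19.8% and 24.5%. Among the 5862, 9038 and 8376 cells with at least 5000 UMIs, thinned to that number before the rule was applied, they were 11.2% (10.4 to 12.1), 11.7% (11.1 to 12.4) and 16.4% (15.6 to 17.2). The share in Neg and AA could therefore not be told apart at equal depth, whereas AA+Ab was the highest under these settings. With at least 2 of the 6 markers it was not, the shares then being 27.2%, 33.5% and 33.1%. The same digestion and density gradient preceded each library, and a share of captured cells is not a share of the skin.

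Between AA and Neg, 8360 genes with a mean of at least 10 CPM were compared as log2((CPM+5)/(CPM+5)), and the genes of the rule were left out. In Sostdc1-Barx2 keratinocytes, 46 genes were at least 2-fold higher in AA on this scale (0.550% of those compared) and 24 at least 2-fold lower (0.287%), around a median of 0.01. The genes with the largest ratios were mostly interferon-induced. Of the 16 interferon gamma response genes compared, 5 were past 2-fold higher and 0 past 2-fold lower, and their median was 0.56. Among the 8 type I interferon response genes it was 3 and 0, with a median of 0.76. Other basal keratinocytes had medians of 0.54 and 0.85 for these lists, close to those of the Sostdc1-Barx2 keratinocytes.

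*Iigp1*, an immunity-related GTPase gene, had 2 UMIs in Neg, 1360 in AA and 90 in AA+Ab, or 0.113, 55.9 and 3.21 CPM. In AA it lay in 143 cells (7.90%). Other basal keratinocytes had 0.617, 66.1 and 9.53 CPM of it. *Ifi27l2a*, a gene induced by type I interferon, stood at 30.0, 179 and 47.0 CPM, 5.94 times (5.43 to 6.52) as high in AA as in Neg. It was higher in Sostdc1-Barx2 than in other basal keratinocytes in each library, the latter being at 20.4, 86.3 and 26.3. The guanylate-binding protein genes *Gbp2* and *Gbp2b* had 4.46, 21.3 and 7.57 CPM and 5.36, 29.6 and 9.29 CPM. The ubiquitin-like modifier *Isg15* had 5.70, 20.7 and 4.57 CPM, and *Bst2*, which tethers budding virus particles to the cell, 9.71, 30.7 and 16.1. In all 6 genes AA was the highest library.

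Signal transducers moved less. *Irf1*, an early transcription factor of this response, had 63.5 CPM in Neg and 117 in both AA and AA+Ab. *Jak2* had 32.1, 59.6 and 37.6 CPM. The receptor genes *Ifngr1*, with 185, 215 and 206 CPM, and *Ifnar1*, with 18.9, 16.7 and 17.5, lay close together in the 3 libraries. Genes under the 10 CPM limit were not counted, among them *Zbp1*, a nucleic acid sensor that can start necroptosis, with 2, 129 and 19 UMIs, and *Gbp5*, with 2, 62 and 2 UMIs.

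**Figure D3:**
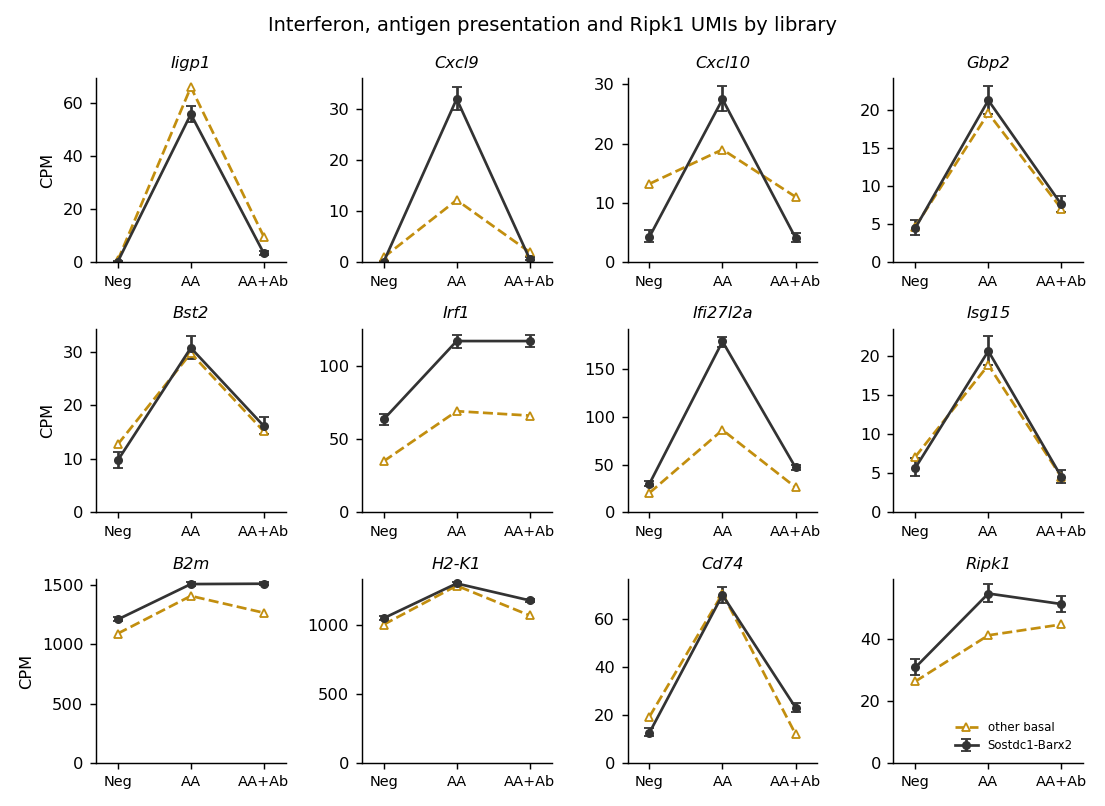
Level (CPM) of 12 interferon, antigen presentation and cell death genes in Neg, AA and AA+Ab, in Sostdc1-Barx2 keratinocytes (black circles, bars are exact 95% Poisson intervals) and other basal keratinocytes (open triangles); each panel has its own axis from 0. Bst2 stands at 9.71, 30.7 and 16.1, whereas Irf1 stays at 117 in AA+Ab.

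The chemokine genes *Cxcl9* and *Cxcl10*, whose products draw T cells through the receptor CXCR3, came from few cells. *Cxcl9* had 0 UMIs in Neg, 776 in AA and 16 in AA+Ab, and 747 of the 776 lay in 10 cells. Set against the limit of 3 UMIs that a count of 0 allows for the Neg cells together, *Cxcl9* was at least 188-fold higher in AA, but without the 10 cells with the most UMIs in each library its log2 value dropped from 2.88 to 0.31. *Cxcl10* had 4.24, 27.5 and 4.07 CPM, with 572 of its 669 UMIs in AA in 10 cells, and went from 1.82 to 0.59 without them. The values of *Iigp1*, *Ifi27l2a* and *Gbp2* did not rest on so few cells, being 3.02, 2.58 and 1.31 without their 10 leading cells. Of the 10 genes on the chemokine list, these were the 2 past 2-fold, and the median was 0.26. *Ccl2*, a monocyte attractant, was highest in AA+Ab, at 5.76, 14.9 and 19.1 CPM.

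Promoters show which of these genes carry the letters of known interferon elements. The 250 bases before the start site of each gene were taken from RefSeq (GRCm38.p6) and searched on both strands for GAAANNGAAA, the core of an interferon-stimulated response element, and for TTCNNNGAA, the palindrome of a gamma-activated site. Of the 24 interferon genes compared, 19 matched the table, and 5 of these held each motif, where 978 (2.98%) and 2306 (7.02%) of all 32851 promoters did. The 4 below hold the first motif and are those of genes past 2-fold in AA; capitals mark the matches, which in *Bst2* include an overlapping match of the second motif. They are written 5′ to 3′ on the strand of the gene, and in *Gbp2* the match lies on the opposite strand, as TTTCNNTTTC.
Bst2, chr8:71537473-71537722, minus strand: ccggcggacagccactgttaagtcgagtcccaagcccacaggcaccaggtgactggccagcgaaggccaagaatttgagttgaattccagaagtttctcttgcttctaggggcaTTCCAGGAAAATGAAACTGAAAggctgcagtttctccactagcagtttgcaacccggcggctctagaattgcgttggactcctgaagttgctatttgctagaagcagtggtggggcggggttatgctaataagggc
Cxcl10, chr5:92348890-92349139, minus strand: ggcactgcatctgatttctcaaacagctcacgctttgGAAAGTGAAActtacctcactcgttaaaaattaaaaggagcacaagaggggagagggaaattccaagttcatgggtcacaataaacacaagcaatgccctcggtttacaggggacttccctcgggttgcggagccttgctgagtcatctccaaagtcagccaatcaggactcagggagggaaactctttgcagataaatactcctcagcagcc
Gbp2, chr3:142620413-142620662, plus strand: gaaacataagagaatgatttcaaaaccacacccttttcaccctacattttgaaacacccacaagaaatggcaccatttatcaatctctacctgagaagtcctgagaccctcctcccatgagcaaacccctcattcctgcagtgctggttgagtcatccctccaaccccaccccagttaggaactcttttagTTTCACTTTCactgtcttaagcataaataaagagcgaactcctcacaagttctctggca
Isg15, chr4:156200819-156201068, minus strand: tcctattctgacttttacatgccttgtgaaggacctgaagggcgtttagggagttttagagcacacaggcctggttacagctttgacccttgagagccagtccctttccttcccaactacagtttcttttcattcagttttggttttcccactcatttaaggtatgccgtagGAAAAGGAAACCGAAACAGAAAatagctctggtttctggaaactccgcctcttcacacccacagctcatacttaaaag
In *Bst2* the match nearest to the start site begins 124 bases before it, in *Isg15* 66, in *Gbp2* 59 and in *Cxcl10* 213. In *Isg15* 3 matches overlap in 1 run. *Cxcl9* held neither motif in this window. A match of letters is a description and no evidence of binding.

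None of the 14 class I antigen presentation genes compared was past 2-fold in AA. All 14 lay above 0, where 51.6% of all genes did, with a median of 0.32. *B2m*, the light chain of class I molecules, had 1209, 1507 and 1510 CPM, and *H2-K1*, a heavy chain, 1048, 1300 and 1177. The peptide transporter gene *Tap1* had 74.7, 90.6 and 72.8 CPM, and *Psmb8*, an immunoproteasome subunit, 151, 218 and 172. C3H mice carry another H2 haplotype than the reference genome, so the levels of single H2 genes are uncertain. Of 3 class II genes, 1 was past 2-fold. *Cd74*, the invariant chain, had 12.6, 70.1 and 23.1 CPM (ratio of AA to Neg 5.54, 4.82 to 6.40) against 19.3, 70.7 and 12.0 in other basal keratinocytes. The macrophage and dendritic cell genes listed summed to 2.03, 3.25 and 4.46 CPM in the chosen cells. *Cd207*, a gene of that list, had 85 UMIs in AA+Ab, 69 of them in 1 cell. The part of such cells in the level of *Cd74* was not tested. In each library fewer of the chosen cells than of leukocytes had a UMI of *Cd74*, 13.2%, 16.9% and 11.9% against 20.6%, 22.5% and 18%. At 5000 UMIs the shares were 5.40%, 9.63% and 5.81%, against 23.3%, 34.7% and 22.2%. The part of free RNA in this level was not tested.

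Of the 4 root sheath and stress keratins compared, 2 were past 2-fold higher, with a median of 0.67. *Krt16* had 40.3, 97.6 and 53.7 CPM and *Krt6a* 18.8, 46.0 and 34.2, with log2 values of 1.18 and 1.10. *Krt17* was by contrast highest in AA+Ab, with the values above. *Phlda1* had 26.4, 102 and 35.0 CPM and was highest in AA in other basal keratinocytes too, with 40.9, 142 and 36.8. *Fam13a* had 8.02, 31.0 and 6.0 CPM, with 501 of its 754 UMIs in AA in 10 cells.

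The lower side was led by 1 broad gene, by differentiation genes and by genes of melanocytes. *Txnip*, an arrestin-like gene that binds thioredoxin and restrains glucose uptake, had 817, 278 and 893 CPM, a ratio of AA to Neg of 0.340 (0.330 to 0.350). It was found in 93.8%, 70.0% and 93.8% of the cells. In other basal keratinocytes it stood at 722, 183 and 724 CPM. The suprabasal genes *Krtdap* and *Krt77* had 1175, 487 and 1124 CPM and 623, 250 and 400 CPM. *Krt77* was not on the suprabasal list. Of the 7 genes of that list compared, *Krtdap* and *Calm4* were the 2 past 2-fold lower in AA. All 7 lay below 0, whereas 51.6% of all genes lay above it. Their median was -0.85 against 0.00 in other basal keratinocytes. Thinned to 5000 UMIs per cell, this median was -0.43. The summed level of the 9 suprabasal genes was 5213, 3070 and 4946 CPM in Sostdc1-Barx2 keratinocytes and 2981, 2987 and 3134 in other basal keratinocytes. *Olfr1033*, an olfactory receptor gene, had 23.1, 5.02 and 7.18 CPM and was also lower in AA among other basal keratinocytes, at 42.0, 10.5 and 16.7. The pigment genes *Tyr*, *Oca2*, *Pmel* and *Dct*, together with *Ptgds* and the calcium-binding protein gene *Tesc*, made up the rest of the 10 genes with the smallest ratios. The 4 melanocyte genes listed summed to 272, 91.7 and 211 CPM, against 125, 152 and 209 in other basal keratinocytes. *Dct* had a UMI in 41.3% of the chosen cells in Neg, in 40.1% of other basal keratinocytes and in 36.2% of leukocytes. With cells thinned to 5000 UMIs these shares were 20.3%, 19.5% and 24.8%. Of the 2054 UMIs of *Dct* in the chosen cells of Neg, 1359 lay in 10 cells. The part of free RNA and of single cells in these levels was not tested.

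In the lists tied to follicle stem cells 0 genes were past 2-fold in AA. *Lgr5* lay just under it, with a plain ratio of AA to Neg of 2.15 (1.96 to 2.37). Without its 10 leading cells in each library its log2 value was 1.16. Those cells held 276 of 571 UMIs in Neg and 638 of 1690 in AA, unequal parts, so this value does not settle the call. Of 17 bulge genes compared, 14 lay above 0, where 51.6% of all genes did, with a median of 0.44 against 0.06 in other basal keratinocytes. *Lhx2* and *Sox9* were among them, with the values above. With cells thinned to 5000 UMIs the median was 0.10, and with the subsets weighted by their shares of UMIs in Neg it was 0.16. The 16 BMP and activin genes had a median of 0.25, the 24 WNT genes of 0.04 and the 5 hedgehog genes of 0.07. *Id1*, a target of BMP signalling, had 111, 159 and 191 CPM, *Tcf7l1*, a WNT repressor of the bulge, 13.4, 22 and 9.61, and *Sfrp1*, a secreted WNT inhibitor, 37.5, 60.3 and 29.2. Among 16 follicle transcription factors the median was 0.26, *Foxc1*, which holds bulge cells quiescent, having 23.1, 24.2 and 33.8 CPM against 0.963, 2.67 and 2.21 in other basal keratinocytes.

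**Figure D4:**
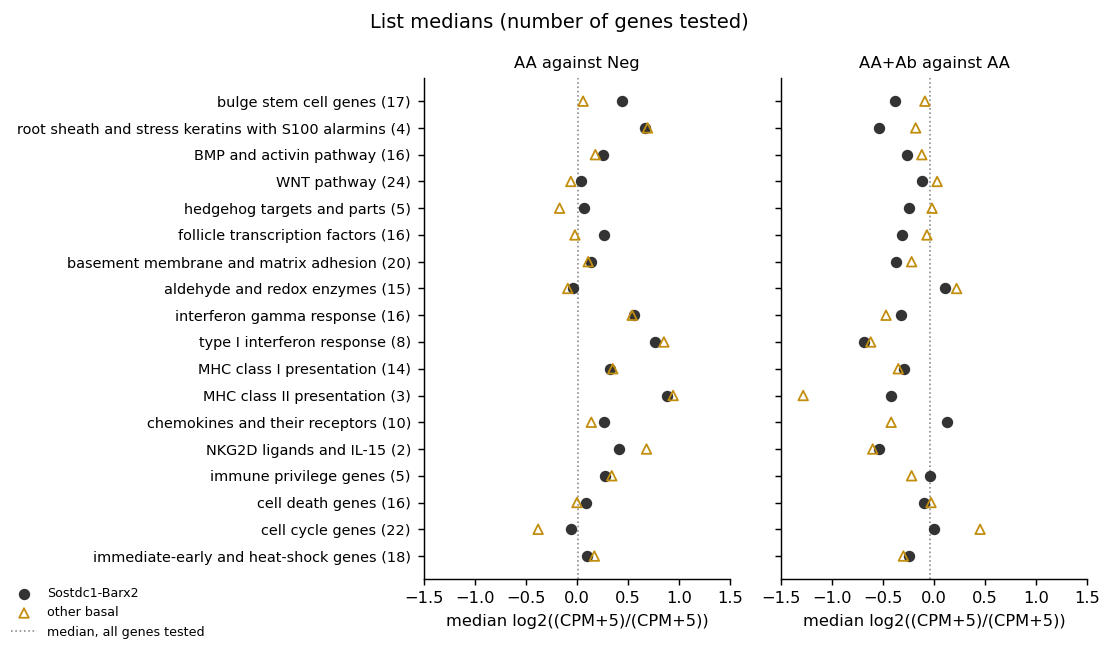
Median log2((CPM+5)/(CPM+5)) of each gene list, AA against Neg (left) and AA+Ab against AA (right), in Sostdc1-Barx2 keratinocytes (black circles) and other basal keratinocytes (open triangles), with the number of genes compared in parentheses and the median of all genes in Sostdc1-Barx2 keratinocytes as a dotted line. Bulge genes stand at 0.44 and 0.06 on the left; both panels use the AA library.

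Cell death genes were compared because the study was about RIPK1, a kinase that can start apoptosis and necroptosis. *Ripk1* had 30.8, 54.7 and 51.3 CPM in Sostdc1-Barx2 keratinocytes, a ratio of AA to Neg of 1.77 (1.60 to 1.96) and of AA+Ab to AA of 0.939 (0.871 to 1.01). Other basal keratinocytes had 26.3, 41.2 and 44.7. In the *Krt79* cells it stood at 32.6, 58.7 and 51.3 CPM, and in the bulge gene cells at 22.1, 30.2 and 39.8, where the interval of the ratio of AA to Neg included 1 (0.866 to 2.22). Its partners in necroptosis were scarce, *Ripk3* with 71, 152 and 139 UMIs and *Mlkl* with 19, 60 and 24. None of the 16 cell death genes compared was past 2-fold, and their median was 0.09. *Casp8*, the caspase that cleaves RIPK1, stood at -0.13 on the log2 scale and *Fas*, a death receptor, had 31.8, 30.9 and 27.6 CPM. The 15 aldehyde and redox enzymes, 18 immediate-early and heat-shock genes, 5 immune privilege genes and 2 genes of the NKG2D ligand list also had 0 past 2-fold, with medians of -0.04, 0.10, 0.27 and 0.41.

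The antibody in AA+Ab binds CXCL12. *Cxcl12* had 38.3, 59.2 and 62.2 CPM in Sostdc1-Barx2 keratinocytes against 8.42, 13.8 and 7.88 in other basal keratinocytes, higher in the former in each library. The gene was found in 31.3%, 31.4% and 40.3% of the cells. Its atypical receptor *Ackr3* had 98.5, 96.5 and 111 CPM, and its signalling receptor *Cxcr4* had 16, 28 and 23 UMIs. *Cd200*, an inhibitory ligand counted among the genes of follicle immune privilege, had 19.7, 24.8 and 26.0 CPM against 2.39, 5.01 and 3.58 in other basal keratinocytes.

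Against AA, AA+Ab had 24 genes at least 2-fold higher (0.287% of those compared) and 82 at least 2-fold lower (0.981%) in Sostdc1-Barx2 keratinocytes, around a median of -0.04. This comparison shares the AA library with the one above, so values are given side by side only. Of the interferon gamma genes 0 were past 2-fold higher and 5 lower, with a median of -0.32, and of the type I interferon genes 0 and 2, with a median of -0.69. *Iigp1*, *Cxcl9*, *Cxcl10*, *Ifi27l2a* and *Fam13a* were among the 10 genes with the smallest ratios, at -2.89, -2.73, -1.84, -1.82 and -1.71. So were *Lgr5* and the muscle genes *Acta1*, *Tnnc2* and *Tnnt3*. Without the 10 cells with the most UMIs of the gene in each library, *Cxcl9* stood at -0.31, *Cxcl10* at -0.54 and *Fam13a* at -0.91.

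Some adhesion and bulge genes were past 2-fold lower in AA+Ab than in AA. *Lgr5* stood at -1.63 and *Cd34* at -1.22, and they were the 2 of 17 bulge genes past 2-fold. Of the 17, 3 lay above 0, where 43.9% of all genes did. Of 20 matrix adhesion genes, 3 were past 2-fold lower and the median was -0.37 against -0.22 in other basal keratinocytes. *Itgb6*, a subunit of an integrin that activates TGF-β, had 56.5, 69.6 and 25.6 CPM, a ratio of AA+Ab to AA of 0.367 (0.336 to 0.401), and *Tnc* 12.0, 24.9 and 7.79, its log2 value of -1.22 becoming -0.99 without its 10 leading cells. *Thbs1*, another matrix gene, had 275, 429 and 178 CPM. For *Itgb6* and *Thbs1*, AA+Ab lay below Neg as well as below AA, and the same order held in other basal keratinocytes (436, 631 and 313 CPM of *Thbs1*). *Nr4a1* and *Dnajb1*, genes of the immediate-early and heat-shock response that can follow tissue digestion, had 333, 442 and 200 and 781, 1174 and 585 CPM, and their part in these values was not tested.

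The genes highest in AA+Ab relative to AA were *Txnip* and *Tsc22d3*. *Tsc22d3*, a glucocorticoid-induced gene that encodes the protein GILZ, had 108, 61.9 and 205 CPM, a ratio of AA+Ab to AA of 3.32 (3.13 to 3.51), and *Fkbp5*, a chaperone of the glucocorticoid receptor, had 22.2, 39.3 and 90.5. In other basal keratinocytes they had 104, 48.1 and 154 and 15.5, 19.7 and 29.3. *Zbtb16*, a transcription factor gene, had 230, 212 and 358 CPM, the highest level again being that of AA+Ab. *Txnip* and *Krtdap* stood at 1.67 and 1.20 on the log2 scale, which brought them near Neg. Of 6 upper follicle genes 3 were past 2-fold higher and 1 lower. *Cst6* had 511, 424 and 1101 CPM and a log2 value of 1.37, *Defb6* 1.10 and *Krt79* 1.02, whereas *Plet1*, with 171, 266 and 129 CPM, stood at -1.02, right at the threshold. The sum of the 6 was 1802, 1534 and 2757 CPM in Sostdc1-Barx2 keratinocytes and 335, 566 and 345 in other basal keratinocytes. Within the *Krt79* cells *Cst6* had the levels given above, so AA+Ab had both more such cells and more *Cst6* per UMI in them. Few cells held much of it. Among all chosen cells, 10 cells had 5440 of 9052 *Cst6* UMIs in Neg, 6332 of 10316 in AA and 12429 of 30827 in AA+Ab. Without the 10 leading cells in each library, which are unequal parts, the log2 value of *Cst6* was 1.97.

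**Figure D5:**
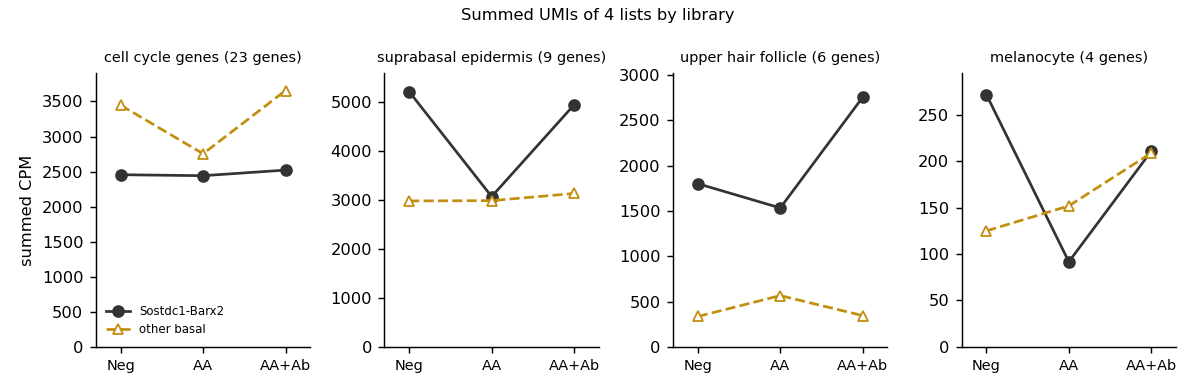
Summed CPM of 4 gene lists in Neg, AA and AA+Ab, in Sostdc1-Barx2 keratinocytes (black circles) and other basal keratinocytes (open triangles), each axis from 0. Cell cycle genes lie between 2441 and 2521 in Sostdc1-Barx2 keratinocytes, and the upper hair follicle sum reaches 2757 in AA+Ab.

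Between AA+Ab and Neg, 11 genes were at least 2-fold higher (0.132%) and 14 at least 2-fold lower (0.167%), with a median of -0.02. The interferon gamma and type I interferon lists had 0 genes past 2-fold in either direction, with medians of 0.16 and 0.03. *Ccl2* was the only chemokine gene past 2-fold, at 1.17. *Itgb6* was the only adhesion gene, at -1.01 and at -0.92 without its 10 leading cells, and the heat-shock gene *Hspa1a*, with 686, 549 and 294 CPM, stood at -1.21. The interferon factor *Irf1* remained apart, at 0.84.

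Cell cycle genes had a steadier level in Sostdc1-Barx2 than in other basal keratinocytes. The 23 genes summed to 2455, 2441 and 2521 CPM in the former and 3447, 2754 and 3656 in the latter. The median of AA against Neg was -0.06 against -0.38, and that of AA+Ab against AA 0.00 against 0.45. *Mki67*, which marks cycling cells, had 102, 140 and 102 CPM in Sostdc1-Barx2 keratinocytes, highest in AA, and 144, 118 and 157 in other basal keratinocytes, lowest in AA. After thinning, *Mki67* was found in 13.2%, 14.2% and 14.3% of the Sostdc1-Barx2 keratinocytes. The difference between the kinds of cell was not tested.

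The interferon-induced gene *Ifi27l2a* had its highest level in the *Krt79* cells of AA. It had 16.0, 404 and 35.6 CPM in these cells, a ratio of AA to Neg of 25.2 (19.3 to 33.5), and 32.8, 141 and 51.2 in the cells of neither subset, a ratio of 4.29 (3.87 to 4.76). In the bulge gene cells it had 42.5, 163 and 42.2. AA was thus the highest library in each subset. *B2m* was lower in the bulge gene cells than in the cells of neither subset, at 494, 782 and 889 CPM against 1293, 1590 and 1577. *Txnip* had close levels in the 3 libraries in the bulge gene cells, at 435, 417 and 401 CPM. The ratio of AA to Neg there was 0.959 (0.862 to 1.07). In the cells of neither subset *Txnip* stood at 890, 259 and 970 CPM. *Cxcl12* was highest in the bulge gene cells of AA, with 77.4, 139 and 70.9 CPM against 30.2, 47.7 and 56.5. The subsets were chosen after their counts were known, and no difference between them was tested.

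Genes of other cell types were present at low levels. T cell genes summed to 63.6, 38.6 and 58.3 CPM, nearly all from the T cell receptor constant gene *Trbc2* with 59.8, 34.4 and 54.3, while *Cd3e* had 19, 18 and 33 UMIs and *Cd8a* 0, 1 and 2. Fibroblast genes summed to 50.4, 66.4 and 51.4 CPM, against 189, 168 and 249 in other basal keratinocytes, and endothelial genes to 1.47, 1.56 and 1.43. Inner root sheath genes summed to 56.3, 45.1 and 68.5 CPM. Muscle genes summed to 38.3, 91.6 and 19.0 CPM, and red cell genes to 7.74, 2.71 and 340, with 9375 of the 9514 hemoglobin UMIs of AA+Ab in 1 cell.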

How the data were processed

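Dorsal skin of the mice was pooled, digested with collagenase D, depleted of red cells and debris, and captured with the 10x 3′ protocol. Per the labels, the authors ran Cell Ranger 7.2.0 against mm10 and FastQC 0.11.7. Which annotation release was used is not given in the sources used here. The deposited values are raw UMI counts per gene for barcodes called as cells, with no normalization. The study's paper describes the Neg and AA libraries but not AA+Ab.

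Barcodes were kept at no more than 10% mitochondrial UMIs and no fewer than 200 genes. Counts were summed over the chosen cells of each library and divided by all UMIs of these cells (CPM). Ratios are given as log2((CPM+5)/(CPM+5)) for 8360 genes with a mean of at least 10 CPM over the 3 libraries, without the genes of the rule, and a gene was counted as past the fold at 2-fold or beyond. Shares have exact Clopper-Pearson intervals, sums exact Poisson intervals and ratios of CPM exact conditional binomial intervals, at 95%. For a count of 0 the limit was 3 UMIs. Leukocytes, used as background, had at least 2 UMIs of *Ptprc*. Doublets were scored in each library against simulated doublets, 0.8% per 1000 barcodes were called, and they were kept in the main values. Thinned values leave out cells with fewer than 5000 UMIs. No test was made, since each group was 1 library of pooled mice and cells are not replicates. The counting of genes was tested on simulated data.

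The genes named in the text are the 6 markers, the genes of fixed lists, the genes ranked 10 highest and 10 lowest by ratio for AA against Neg and for AA+Ab against AA, and the 20 that led over other basal keratinocytes. Predicted, mitochondrial, ribosomal protein and hemoglobin genes were left out of the ranked names. The members and the lists were chosen with earlier results of these data known. Alternatives changed the filters on cells, the number of markers, depth, pseudocount, scaling, filter on low genes and doublets. Those that kept excluded cells in, left out the 10 cells with the most UMIs of a gene, or weighted the subsets, and the subsets themselves, were chosen after seeing the data. Software was scipy 1.17.1, numpy 2.4.6, scikit-learn 1.9.0, pandas 2.3.3 and matplotlib 3.10.9 under Python 3.11.15. Promoters came from RefSeq (GRCm38.p6), whose table held no entry for *Ifi27l2a*. Some genes that meet the naming rule are not reported here.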

Additional observations from a re-analysis of the deposited data

Results flagged for a closer look

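Some genes moved in opposite directions in Sostdc1-Barx2 and in other basal keratinocytes between AA and Neg, and for each of them the difference was not tested. The muscle genes *Acta1*, *Tnnc2* and *Tnnt3* were each at 1.20 in Sostdc1-Barx2 keratinocytes, on the log2 scale, and at -2.23, -1.84 and -2.14 in other basal keratinocytes. The pigment genes *Tyr* and *Oca2* were at -1.67 and -1.62 in Sostdc1-Barx2 keratinocytes and at 0.76 and 1.06 in the others. Few cells carried these values. Of the 1583 UMIs of *Acta1* in the AA cells 1099 lay in 10 cells, and without the 10 cells with the most UMIs of the gene in each library the values were -0.12 for *Acta1*, 0.02 for *Tnnc2*, -0.03 for *Tnnt3*, -0.28 for *Tyr* and -0.05 for *Oca2*.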

How the results depend on the processing

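With 1 library per group, the values cannot be set against a spread between mice, and depth limits the genes with few UMIs most. No paired analysis was possible because each group was 1 library. The share of the cells (14.7%, 17.3% and 20.3% in Neg, AA and AA+Ab) was 9.59%, 10.6% and 13.9% with at least 4 of the 6 markers, 27.2%, 33.5% and 33.1% with at least 2, 10.8%, 12.2% and 15.9% without *Postn*, 11.2%, 11.7% and 16.4% with cells thinned to 5000 UMIs before the rule, and 21.0%, 19.8% and 24.5% with the excluded cells kept in. With mitochondrial UMIs of at most 5% it was 18.2% in AA and 21.2% in AA+Ab, and without doublets 16.5% in AA. The genes past 2-fold between AA and Neg numbered 70, and 29 (23 higher, 6 lower) with cells thinned, 29 (22 and 7) as a mean over cells, and 23 (14 and 9) with a filter at 50 CPM. The share of them that was higher, 65.7%, was 79.3% with cells thinned, 75.9% as a mean over cells, 85.1% (57 higher, 10 lower) with at least 4 markers and 81.6% (40 and 9) without the 10 cells with the most UMIs of each gene. Between AA+Ab and AA 106 genes were past 2-fold, and 53 with the filter at 50 CPM. Between AA+Ab and Neg there were 25, and 15 (10 higher, 5 lower) without the 10 cells, 39 with a pseudocount of 1 CPM, and 8 with the filter at 50 CPM. The share higher there, 44.0%, was 29.0% with cells thinned, 32.0% as a mean over cells, 66.7% without the 10 cells and 62.5% with that filter. Signs of genes past 2-fold reversed without the 10 cells for *Acta1* (-0.12) and *Tnnt3* (-0.03) in AA against Neg. They also reversed for *Scd1* (0.07, and 0.11 at 5% mitochondrial UMIs) in AA+Ab against AA, and for *Hba-a1* (-0.26) in AA+Ab against Neg. The stricter filters compare fewer genes or cells by construction, and for the other settings the cause was not tested. Leaving out 10 cells takes a larger part of the 969 chosen cells of Neg than of the 1810 of AA and the 1991 of AA+Ab. Of the other values over these settings, 993 of single genes kept their side of 2-fold and 148 crossed it in size. The sign was checked only for genes past 2-fold, and those among the 993 kept it. Of the list medians, 738 stayed within 0.2 of the value reported and 102 moved further. No scaling shifted the median of all genes by more than 0.06.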
